A study of Mus musculus with 27 samples.

Results

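The comparison described here asked whether the difference between monocyte-derived cells of the manipulated and the non-manipulated small intestine was the same 2 days after transfer as 1 day after transfer. It was formed from 19 of the 27 samples of the series, with 5 non-manipulated and 5 manipulated mice at day 1, and 5 non-manipulated and 4 manipulated mice at day 2. Members were all 57 genes with values among the 67 designed for the panel. For each gene, the manipulation effect was the log2 ratio of manipulated over non-manipulated mice on a day, and the change of the manipulation effect was the effect at day 2 minus the effect at day 1. A negative change means that the day 2 effect lay below the day 1 effect on this scale.

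All recipients were CCR2-/- C57BL/6 mice, which send few monocytes of their own into tissues, and monocytes were transferred from donor bone marrow. The labels give wild-type C57BL/6 donors for all 27 samples, whereas the study's methods name wild-type or CX3CR1gfp/+ donors, which lack a copy of Cx3cr1, for its differentiation experiments as a whole. Manipulated recipients had the small intestine handled surgically under anaesthesia 1 day before transfer and received an analgesic in the drinking water, whereas non-manipulated recipients had no operation. No sham-operated mice were among these samples, so handling of the gut, the incision, the anaesthetic and the analgesic cannot be told apart. From each mouse, 100 donor cells of the CD64+ mononuclear phagocyte gate were sorted from the lamina propria of the small intestine, their transcripts were amplified in 16 cycles with gene-specific primers and the products were counted as coloured barcodes (NanoString nCounter). Different mice were taken at day 1 and day 2, so that no mouse was followed over time. Surgery came 1 day before transfer in all manipulated mice. Time in the tissue and time since surgery therefore rose together in that arm and cannot be told apart. In pools of 100 cells, a change in how many cells of a kind were present and a change in RNA per cell cannot be told apart.

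Monocytes that enter the gut wall mature within days from cells rich in Ly6C into macrophages rich in MHC class II and CX3CR1. In inflamed gut this course is altered, and newly arrived monocytes produce cytokines that act on vessels, epithelium and lymphocytes, together with chemokines that draw in further monocytes and neutrophils. Interleukin 1 alpha and tumour necrosis factor act early in such responses, interleukin 6 drives the acute phase response, and interleukin 23, of which Il23a encodes the p19 subunit, sustains lymphocytes that make interleukin 17.

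In the 19 lanes the total panel count ranged from 697131 to 1347007, and the geometric mean of the housekeeping genes Actb, Gapdh and Rpl19, to which all values were scaled, from 20656 to 41968. A lane's background was the mean plus 2 SD of its 5 negative control probes, and 56 or 57 of the 57 genes lay above it in each lane. All 7 measured markers of monocytes and macrophages (Csf1r, Fcgr1, Adgre1, Cd68, Spi1, Cd14 and Ccr2) stood at 5.91 times background or more in each of the 19 lanes. Their summed scaled count ran from 232579 to 309728 in non-manipulated and from 196070 to 244247 in manipulated mice at day 1, and from 220538 to 351067 and from 132524 to 254254 at day 2. Single markers moved in opposite directions under this sum. At day 1 the manipulation effect was 1.00 for Cd14, -1.73 for Ccr2 and -1.10 for Csf1r (adjusted p = 0.00217, 0.00482 and 0.0467, edgeR quasi-likelihood test). Fcgr1, Adgre1, Cd68 and Spi1 were not called at day 1. Of 3 dendritic cell markers, Flt3 and Zbtb46 had no values and Ccr7 was measured in all 19 lanes, at 17.3 times background or more. The scaled count of Ccr7 ran from 699 to 3057 in non-manipulated and from 921 to 3277 in manipulated mice at day 1. At day 2 it ran from 1093 to 17885 (median 2148) in non-manipulated and from 1137 to 3017 in manipulated mice. The change of its manipulation effect was -1.37 (adjusted p = 0.453, edgeR quasi-likelihood test). Markers of neutrophils, lymphocytes, epithelium and stroma were not on the panel. The log2 ratio of Rpl19 to Gapdh was 0.52 higher in manipulated than in non-manipulated mice at day 1 and 0.86 higher at day 2, and that of Actb to Gapdh was 0.39 and 0.18 lower, which leaves differences between the days of 0.34 and 0.20. Non-manipulated mouse 1 of day 2 stood apart, with the lowest panel total and a log2 ratio of Rpl19 to Gapdh of -7.18, and the 4 genes called below were also called without it.

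The manipulation effect changed between the days for 4 of 57 genes, all downwards (7.02% of the genes tested, edgeR quasi-likelihood test, adjusted p under 0.05). These were the cytokine genes Il1a, Il6 and Il23a and the chemokine gene Ccl7, which attracts monocytes through CCR2. No gene was called with an upward change (0.0%), and the 5 genes called by DESeq2, these 4 and Ly6c1, were all downward as well. At an unadjusted p under 0.05 there were 11 genes (19.3%), of which 8 changed downwards (14%) and 3 upwards (5.26%). Each of the 4 called genes was higher in manipulated mice at day 1, from 16.8-fold for Il1a to 130-fold for Ccl7, whereas at day 2 the fold ranged from 1.04-fold lower for Il23a to 8.19-fold higher for Ccl7.

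The sequences before the start of Il1a and Il6 are shown because these genes had the smallest p for the change. They run from 250 bases before to 50 bases after the start used for the window and are taken from RefSeq on GRCm38.p6, at chr2:129309923-129310222 on the minus strand for Il1a and at chr5:30012864-30013163 on the plus strand for Il6. This start is the first base of the Il6 gene record, but for Il1a it lies 214 bases inside the gene record. Capitals mark matches on either strand to the NF-kB consensus, to the AP-1 motif TGANTCA and to the C/EBP motif TTNNGNAA, which are binding motifs of factor families active in stimulated myeloid cells.
Il1a: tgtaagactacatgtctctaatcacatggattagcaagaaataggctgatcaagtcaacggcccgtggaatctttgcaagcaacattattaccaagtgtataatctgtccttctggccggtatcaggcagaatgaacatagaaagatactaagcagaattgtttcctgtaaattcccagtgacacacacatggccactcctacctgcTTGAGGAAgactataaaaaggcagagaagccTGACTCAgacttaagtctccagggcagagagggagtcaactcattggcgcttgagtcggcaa
Il6: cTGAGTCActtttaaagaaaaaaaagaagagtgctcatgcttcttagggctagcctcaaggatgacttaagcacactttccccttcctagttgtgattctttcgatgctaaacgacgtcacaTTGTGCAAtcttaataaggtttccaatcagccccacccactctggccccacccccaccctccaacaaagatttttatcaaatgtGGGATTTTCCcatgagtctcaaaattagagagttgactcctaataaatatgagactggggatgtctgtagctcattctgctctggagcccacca
The Il1a sequence held the AP-1 motif starting at base -12 and the C/EBP motif at base -43 relative to the start of its window, and these letters of the NF-kB consensus were not found in it. The Il6 sequence held the NF-kB consensus at base -44, the C/EBP motif at base -128 and the AP-1 motif at base -249. Of 27025 mouse promoters of this length, 8.18% held the NF-kB consensus, 7.93% the AP-1 motif and 40.7% the C/EBP motif, and of the 37 panel genes with a sequence, 7, 8 and 19 did.

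Il1a encodes a cytokine that is released by activated or damaged cells and signals through the interleukin 1 receptor. In non-manipulated mice 1 to 5 the scaled count of Il1a was 8129, 7601, 9567, 6941 and 4000 at day 1, and 36871, 57989, 10540, 51006 and 15457 at day 2. In manipulated mice it was 106698, 138604, 105998, 124813 and 131716 at day 1, and 79419, 109202, 89231 and 89998 in the 4 mice of day 2. All non-manipulated mice lay below all manipulated mice on each day, and all non-manipulated mice of day 2 lay above those of day 1, while the manipulated mice of the 2 days overlapped. Over the panel, mice of the 2 arms did not overlap for 33.3% of genes at day 1 and 28.1% at day 2, and mice of the 2 days did not overlap for 10.5% of genes in each arm. Means were 7247 ± 2057 (SD, n = 5) and 34373 ± 21015 (SD, n = 5) in non-manipulated mice, and 121566 ± 14725 (SD, n = 5) and 91962 ± 12461 (SD, n = 4) in manipulated mice. The manipulation effect was 4.07 ± 0.42 (SE) at day 1 and 1.42 ± 0.39 (SE) at day 2, and its change was -2.65 ± 0.55 (95% confidence interval -3.79 to -1.51, adjusted p = 0.00379). Il1a rose 4.74-fold from day 1 to day 2 in non-manipulated mice (adjusted p = 0.00028) and gave a log2 change of -0.40 ± 0.40 in manipulated mice (adjusted p = 0.625).

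Il6 differed from Il1a in the arm that moved. In non-manipulated mice its scaled count was 59.3, 61.7, 59.6, 56.9 and 33.8 at day 1, and 54.9, 150, 21, 153 and 126 at day 2. In manipulated mice it was 2810, 1293, 451, 1207 and 3714 at day 1, and 300, 341, 163 and 238 at day 2. Every manipulated mouse of day 2 lay below every manipulated mouse of day 1, yet above every non-manipulated mouse of either day. The effect was 5.12 ± 0.67 (SE) at day 1 and 1.37 ± 0.60 (SE) at day 2, with a change of -3.76 ± 0.86 (95% confidence interval -5.52 to -1.99, adjusted p = 0.0053). Il6 fell 7.27-fold in manipulated mice (adjusted p = 0.0111) and was the only one of 57 genes called between the days in that arm (1.75%), with a log2 change of 0.89 ± 0.57 in non-manipulated mice (adjusted p = 0.348). The non-manipulated values were close to background, with a median of 1.76 times the lane background at day 1 and 3.71 times at day 2, and 1 mouse of each day lay below it.

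Il23a was the least stable of the 4 calls. Its scaled count in non-manipulated mice was 45.7, 74.5, 57.2, 111 and 64.4 at day 1, and 878, 686, 50.2, 5933 and 61.1 at day 2. In manipulated mice it was 506, 1110, 1848, 6111 and 146 at day 1, and 951, 1389, 579 and 2952 at day 2. At day 2, non-manipulated mice 3 and 5 lay within the day 1 range of that arm, and the other 3 reached the range of manipulated mice. The effect of 4.78 ± 1.11 (SE) at day 1 became -0.05 ± 1.00 (SE) at day 2, a change of -4.83 ± 1.47 (95% confidence interval -7.87 to -1.80, adjusted p = 0.0438). The fit gave a rise of 4.43 ± 1.09 on the log2 scale in non-manipulated mice (adjusted p = 0.00595), which follows their arithmetic mean and hence mouse 4. The day 1 non-manipulated level had a median of 2.05 times the lane background, with 1 of 5 mice above 3 times. Without mouse 4 of day 2, the change of the effect was -2.97 (adjusted p = 0.18). Limma on log2 counts, which follows the mean of logs, gave -2.26 (adjusted p = 0.586).

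Ccl7 encodes a ligand of CCR2 that draws monocytes from blood into tissue. In non-manipulated mice its scaled count was 60.9, 94.6, 80.9, 58.2 and 361 at day 1, and 443, 1503, 1691, 1248 and 5366 at day 2. In manipulated mice it was 19254, 5106, 25296, 24894 and 10616 at day 1, and 19802, 8331, 19852 and 19150 at day 2. Every non-manipulated mouse of day 2 lay above every non-manipulated mouse of day 1, and the manipulated mice of day 2 lay within the range of those of day 1. The effect was 7.02 ± 0.93 (SE) at day 1 and 3.03 ± 0.79 (SE) at day 2, with a change of -3.99 ± 1.09 (95% confidence interval -6.24 to -1.74, adjusted p = 0.023). Ccl7 rose 15.6-fold in non-manipulated mice (adjusted p = 0.00126) and its log2 change was -0.02 ± 0.75 in manipulated mice (adjusted p = 0.978). The day 1 non-manipulated level had a median of 2.74 times the lane background. Without non-manipulated mouse 5 of day 2 the change was -3.24 (adjusted p = 0.0627), and without manipulated mouse 2 of day 2 it was -3.76 (adjusted p = 0.0717).

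**Figure D1:**
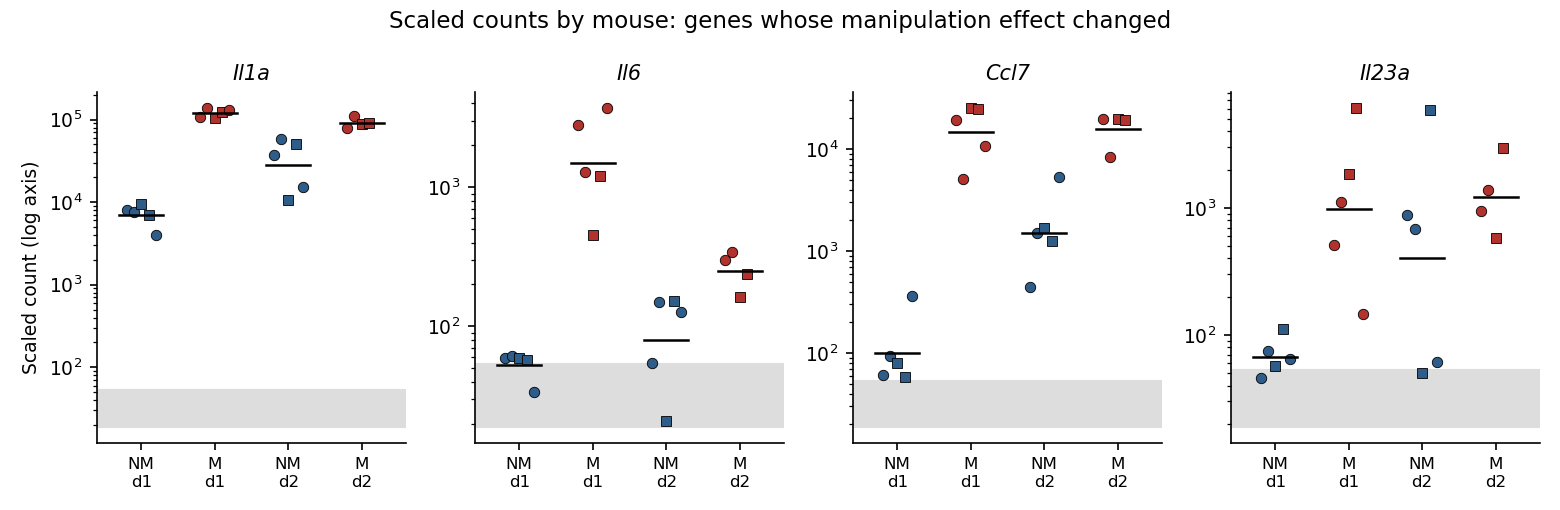
Scaled counts on a log axis of the 4 genes whose manipulation effect changed, in non-manipulated (NM, blue) and manipulated (M, red) mice at day 1 (d1) and day 2 (d2). Each point is a mouse, squares are mice 3 and 4, bars are geometric means and the grey band spans the lane backgrounds. In the non-manipulated arm all day 2 mice lay above all day 1 mice for Il1a and Ccl7. For Il23a, mice 3 and 5 of day 2 stayed within the day 1 range. Il6 fell in the manipulated arm from between 451 and 3714 to between 163 and 341.

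The mice numbered 3 and 4 of each group carried deposited values in steps other than whole counts, which sets their lanes apart from the other lanes. Within these mice the change was -2.26 for Il1a, -2.62 for Il6, -4.76 for Ccl7 and -6.32 for Il23a, with adjusted p of 0.156, 0.244, 0.0136 and 0.156. Within the other mice it was -2.90, -4.12, -3.55 and -2.14 for the same genes, with adjusted p of 0.0263, 0.0263, 0.265 and 0.45. The direction of the 4 genes was thus the same in both sets of lanes, while the calls were divided between them. Trem2 and Siglec1 were called upwards within mice 3 and 4 and within the other mice, respectively. With the lane set as a block, Il1a, Il6 and Ccl7 were called and Il23a had an adjusted p of 0.0973.

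The change of an effect is the change in manipulated mice minus the change in non-manipulated mice, and the calls in the 2 arms were unequal. From day 1 to day 2, 8 of 57 genes were called in the non-manipulated arm (14%), 6 upwards (10.5%) and 2 downwards (3.51%), against Il6 alone in the manipulated arm. At an unadjusted p under 0.05 the counts were 15 (26.3%) and 10 (17.5%). The rises in the non-manipulated arm were those of Ccl7, Il23a, Il1a, Ccr9, Tnf and Il10, and Chil3 was among the falls. Of these 8 genes, 3 were also called for a change of the manipulation effect. Il10, the gene of an anti-inflammatory cytokine, rose by 1.23 ± 0.41 (SE) on the log2 scale in non-manipulated mice (adjusted p = 0.0416), with a change of its manipulation effect of -0.77 ± 0.59 (adjusted p = 0.481).

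**Figure D2:**
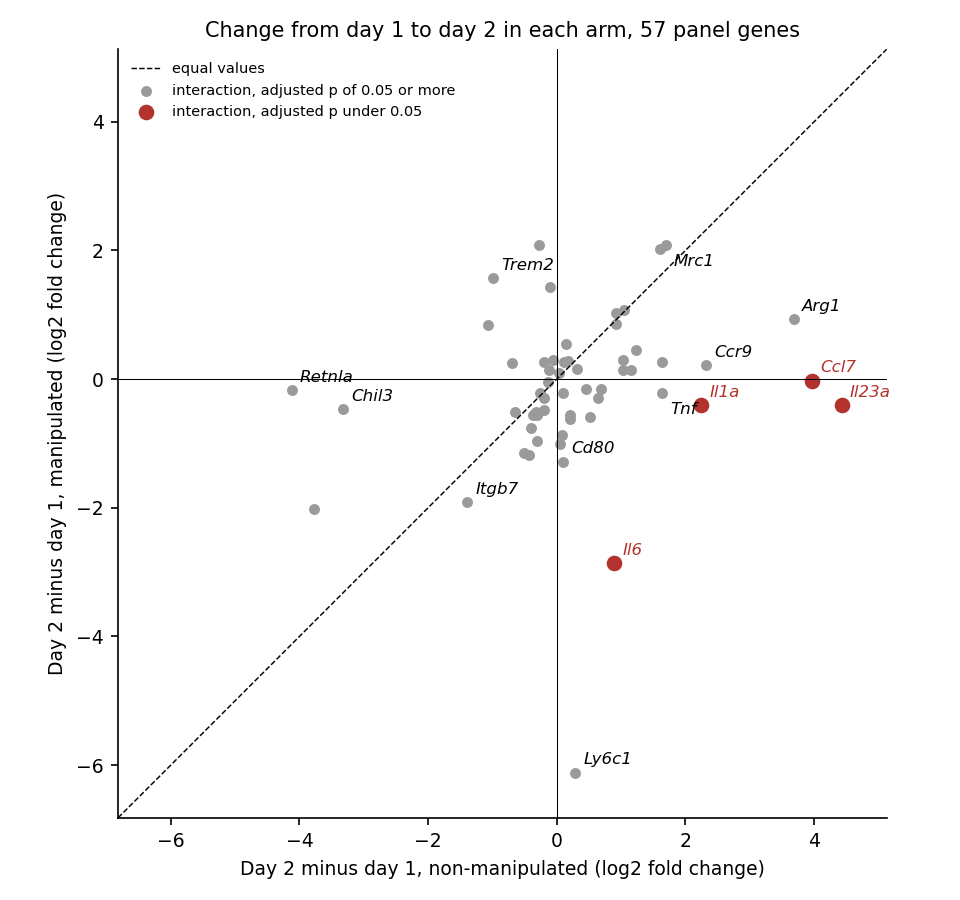
Fitted log2 change from day 1 to day 2 in non-manipulated mice (horizontal) against manipulated mice (vertical) for 57 panel genes, with equal changes on the dashed line and the 4 genes with a called difference in red. Il1a, Ccl7 and Il23a lie far to the right at -0.40, -0.02 and -0.41 on the vertical axis, whereas Il6 lies low at -2.86.

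The 5 proinflammatory cytokine genes measured all had a negative change, as did 35 of all 57 genes, with a median of -2.65 against -0.28 over the 57. Of the 5, 3 passed the test, all downwards, against 4 of the 57 (7.02%). Tnf and Il1b completed this list. The scaled count of Tnf in non-manipulated mice was 14136, 12890, 27874, 34557 and 6098 at day 1, and 73044, 63519, 53232, 84788 and 21088 at day 2. In manipulated mice it was 58555, 107509, 92905, 91900 and 51924 at day 1, and 45415, 59785, 88625 and 83995 at day 2. The arms did not overlap at day 1 and overlapped at day 2. Tnf rose by 1.63 ± 0.51 (SE) on the log2 scale in non-manipulated mice (adjusted p = 0.0304), with a change of its effect of -1.84 ± 0.73 (95% confidence interval -3.36 to -0.33, adjusted p = 0.158). Il1b, the gene of the secreted interleukin 1 beta, had an effect of 1.30 ± 0.39 at day 1 and 0.53 ± 0.40 at day 2, and a change of -0.77 (95% confidence interval -1.92 to 0.39, adjusted p = 0.453). Over the 5 genes the median absolute effect was 4.07 at day 1 and 0.53 at day 2.

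Among the 4 chemokine genes that recruit myeloid cells the median change was -0.86, and 1 gene, Ccl7, passed the test. Ccl2, another CCR2 ligand, ranged from 1764 to 4184 in non-manipulated and from 17729 to 27096 in manipulated mice at day 1, and from 2608 to 5302 and from 11721 to 16652 at day 2. Its effect was 2.80 ± 0.37 at day 1 and 1.97 ± 0.37 at day 2, and its change was -0.83 (95% confidence interval -1.86 to 0.20, adjusted p = 0.386). Cxcl1, which attracts neutrophils, had effects of 3.90 ± 0.45 and 3.02 ± 0.45 and a change of -0.88 (95% confidence interval -2.10 to 0.34, adjusted p = 0.431). For Ccl2 and Cxcl1 the arms did not overlap on either day. Ccl8, whose group medians were 2.88 to 3.22 times the lane background, had a change of 0.07 (95% confidence interval -0.82 to 0.95), the only interval of 57 that lay within 1 log2 unit on each side.

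**Figure D3:**
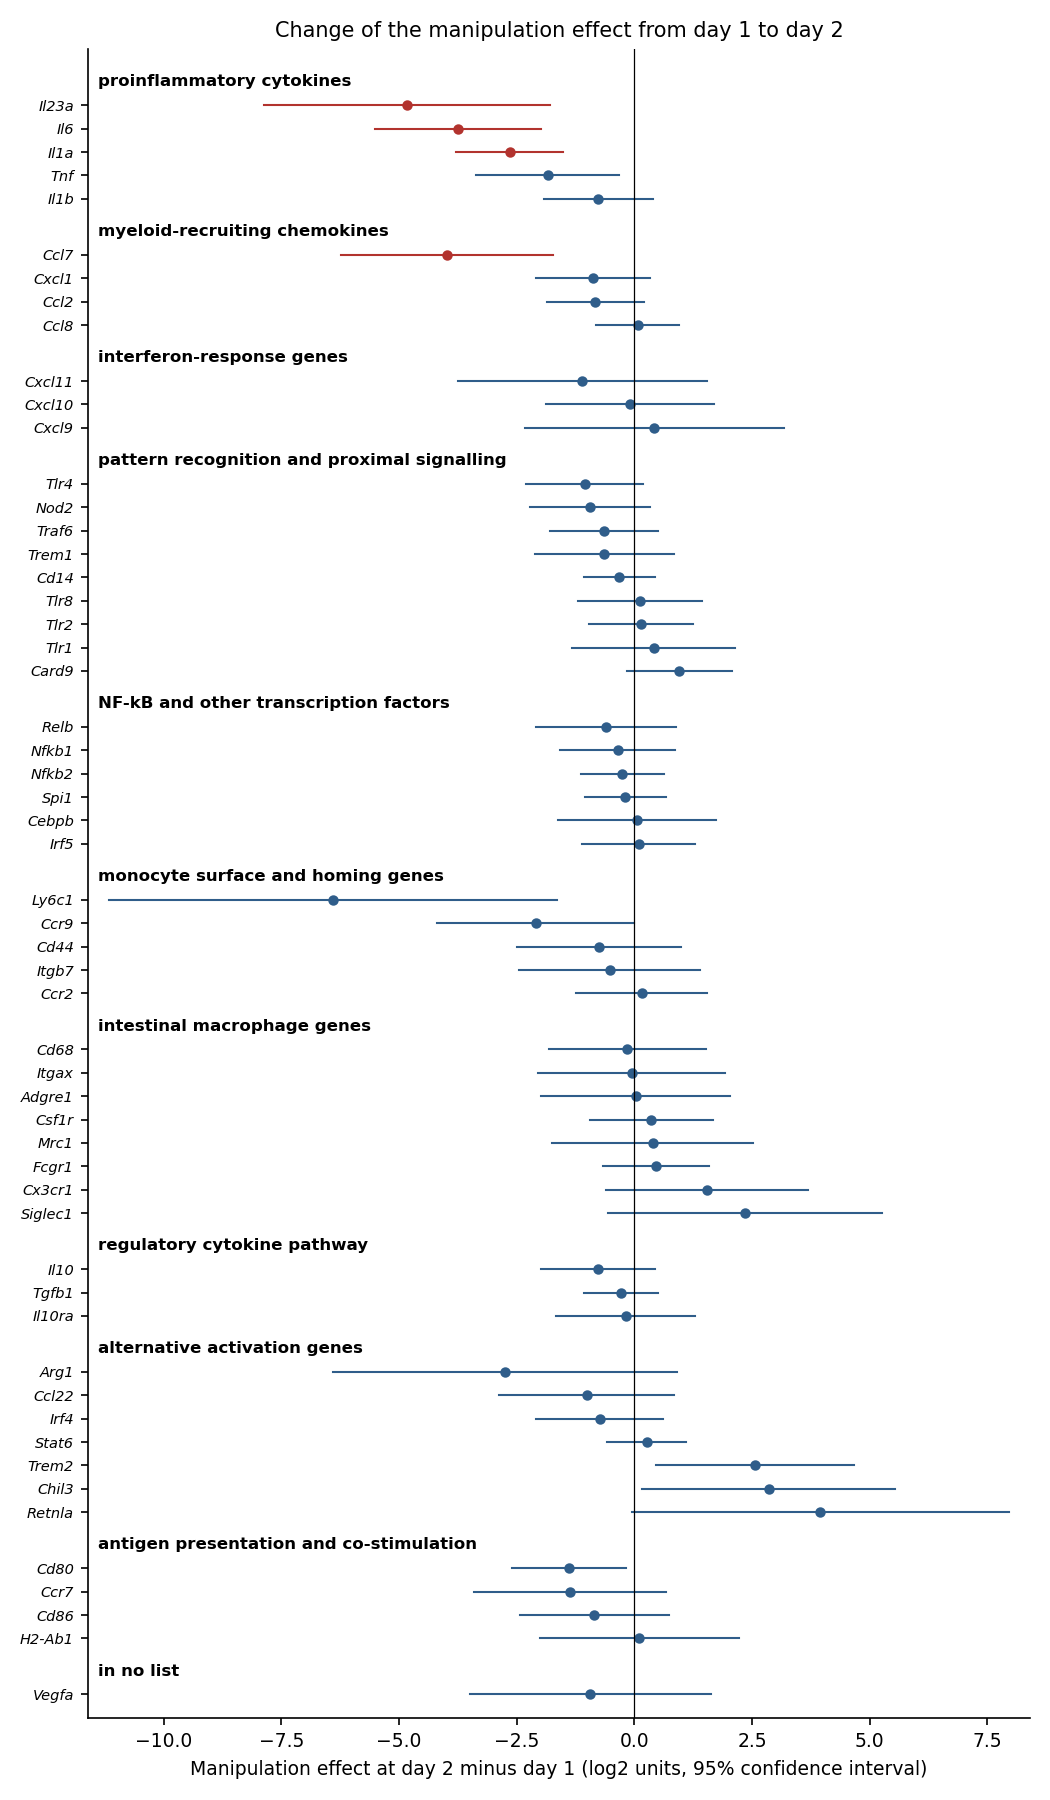
Change of the manipulation effect from day 1 to day 2 (horizontal, log2 units) with its 95% confidence interval for 55 of the 57 genes, grouped by the role of their products, with the 4 called genes in red. All 5 proinflammatory cytokine genes lie left of zero, and the intervals of all 57 genes have a median half-width of 1.58.

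None of the 4 interferon-response genes passed the test, and their median change was 0.16. Cxcl9 and Cxcl11, interferon-induced ligands of CXCR3, were lower in manipulated mice on both days. Both were near background in manipulated mice of day 1, with medians of 2.09 times the lane background. Cxcl11 had a median of 2.73 times in manipulated mice of day 2. These levels limit how large a fold the probes can show. The effect of Cxcl9 was -4.57 ± 1.07 and then -4.15 ± 1.15, with a change of 0.42 (95% confidence interval -2.33 to 3.17, adjusted p = 0.958).

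Of the 9 genes of pattern recognition and its proximal signalling none passed the test, with a median change of -0.32, and 8 had a smaller absolute effect at day 2. Tlr4, the receptor for bacterial lipopolysaccharide, had an effect of 1.11 ± 0.42 at day 1 and 0.05 ± 0.44 at day 2 and a change of -1.06 (95% confidence interval -2.31 to 0.19, adjusted p = 0.381). Its co-receptor gene Cd14 had a change of -0.32 (95% confidence interval -1.08 to 0.43), and Card9, an adaptor of fungal recognition, one of 0.95 (95% confidence interval -0.16 to 2.07). The 6 genes of NF-kB subunits and other transcription factors lay between -0.60 for Relb and 0.09 for Irf5, with a median of -0.22 and none called. In the regulatory cytokine pathway, Il10, Il10ra and Tgfb1 had changes of -0.77, -0.19 and -0.28, and none was called.

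The 6 genes of monocyte surface and homing molecules had a median change of -0.64, none called. Ly6c1, which encodes a Ly6C antigen that marks newly arrived monocytes, had the largest negative value of the panel. Its scaled count was 14404, 1649, 1174, 1928 and 29887 in non-manipulated and 47248, 10398, 602, 676 and 27091 in manipulated mice at day 1. Day 2 values were 16509, 145, 144, 10208 and 32957 in non-manipulated and 254, 560, 106 and 69.8 in manipulated mice. All manipulated mice of day 2 lay below those of day 1, by a narrow margin (560 against 602), while non-manipulated mice of day 2 ran from 144 to 32957. Manipulated mice 3 and 4 of day 1, at 602 and 676, lay far below the others of that group. The change of the Ly6c1 effect was -6.41 ± 2.31 (95% confidence interval -11.17 to -1.65, adjusted p = 0.118), and in the manipulated arm alone its log2 value was -6.12 ± 1.97 (adjusted p = 0.132). That arm gave -2.86 within mice 3 and 4 and -6.12 within the other mice (adjusted p = 0.485 and 0.0378, edgeR quasi-likelihood test).

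Ccr9 encodes a chemokine receptor that lymphocytes use for homing to the small intestine. The study found no effect of CCR9 deficiency on how monocytes accumulated there. The scaled count of Ccr9 was 146, 202, 175, 189 and 77.1 in non-manipulated and 265, 134, 124, 120 and 104 in manipulated mice at day 1. At day 2 it was 343, 226, 130, 134 and 3106 in non-manipulated and 414, 86.9, 99.6 and 95.9 in manipulated mice. The groups overlapped on both days and a single mouse, non-manipulated mouse 5 of day 2, stood 9.05 times above the next highest of its group. The rise called in non-manipulated mice (2.32 ± 0.72 on the log2 scale, adjusted p = 0.0304) and the change of the effect (-2.10 ± 1.01, adjusted p = 0.25) contain this mouse, and without it the change was -0.18.

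Among the 8 genes of intestinal macrophages the median change was 0.37, with 6 above zero, against 22 of all 57 genes, and none called over all mice. In manipulated mice all 8 had a day 2 value above that of day 1 in the fit, against 25 of all 57 genes. The 8 values ran from 0.15 ± 0.59 (SE) for Cd68 to 2.09 ± 1.04 (SE) for Siglec1, and none was called. Siglec1, a sialic acid receptor of resident macrophages, had the largest change of this list, 2.36 (95% confidence interval -0.55 to 5.27, adjusted p = 0.386), and Cx3cr1, whose product binds fractalkine and marks mature macrophages of the gut, reached 1.54 (95% confidence interval -0.60 to 3.69, adjusted p = 0.431). Siglec1 is shown by mouse because it was called within one set of lanes, a choice made after its values were seen. Its scaled count was 3133, 4546, 1809, 2477 and 22975 in non-manipulated and 58.8, 83.8, 2873, 6682 and 51.9 in manipulated mice at day 1. Day 2 values were 2711, 3373, 5832, 2608 and 14477 in non-manipulated and 3742, 6517, 11821 and 11103 in manipulated mice. Manipulated mice 1, 2 and 5 of day 1 lay far below all other mice, and mice 3 and 4 of that group lay within the non-manipulated range. The change of its effect was 6.88 ± 1.28 within the other mice (adjusted p = 0.00396) and 0.28 ± 0.82 within mice 3 and 4 (adjusted p = 0.91). In manipulated mice of day 1 the lowest Siglec1 count stood at 1.67 times the lane background, with 3 of 5 mice above 3 times. Counts this low limit the size of the Siglec1 fold within the other mice. The effects of Cx3cr1 (-3.70 and -2.16) and of Itgax, which encodes CD11c (-2.38 and -2.44), were called lower in manipulated mice on both days. In manipulated mice of day 1, Cx3cr1 had a median of 2.57 times the lane background, with 1 of 5 mice above 3 times. This limits how large a fold its probe can show. Adgre1, the gene of F4/80, had a change of 0.03 (95% confidence interval -1.98 to 2.03).

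The 7 alternative activation genes moved in both directions, with a median change of 0.26 and none called. Their median absolute effect was 1.03 at day 1 and 2.04 at day 2. Trem2 encodes a lipid-sensing receptor of tissue macrophages. Its scaled count was 1623, 1991, 5881, 4010 and 394 in non-manipulated and 1351, 388, 5036, 2926 and 1626 in manipulated mice at day 1. Day 2 values were 230, 1324, 1676, 1538 and 2251 in non-manipulated and 1483, 2793, 12435 and 10270 in manipulated mice. The arms overlapped on both days, and mice 3 and 4 had the highest values of 3 of the 4 groups. The effect was -0.30 ± 0.70 at day 1 and 2.26 ± 0.75 at day 2, a change of 2.56 ± 1.02 (95% confidence interval 0.45 to 4.67, adjusted p = 0.158). It was 3.13 within mice 3 and 4 (adjusted p = 0.031) and 1.01 within the other mice (adjusted p = 0.74).

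Chil3 encodes Ym1, a chitinase-like lectin of monocytes and alternatively activated macrophages. Its scaled count was 118305, 51650, 52490, 44639 and 26581 in non-manipulated and 151608, 109965, 42553, 41827 and 62302 in manipulated mice at day 1. At day 2 it was 4925, 8273, 4947, 2816 and 8476 in non-manipulated and 102124, 120165, 7905 and 6162 in manipulated mice. Non-manipulated mice of day 2 all lay below those of day 1, and the manipulated mice of day 2 were split, with mice 1 and 2 at the day 1 level and mice 3 and 4 in the range of non-manipulated mice. Chil3 fell by 3.32 (SE 0.97) on the log2 scale in non-manipulated mice (adjusted p = 0.024), and the change of its effect was 2.85 ± 1.30 (95% confidence interval 0.17 to 5.53, adjusted p = 0.216). This change was 1.06 within mice 3 and 4 and 3.22 within the other mice, with adjusted p of 0.7 and 0.109.

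Arg1, the gene of arginase 1, had effects of 6.12 ± 1.48 at day 1 and 3.37 (adjusted p = 0.0512) at day 2, and a change of -2.75 (95% confidence interval -6.41 to 0.91, adjusted p = 0.431). These fitted values follow arithmetic means, and non-manipulated mice of day 2 ran from 70 to 33769, with a median of 596. Geometric means in non-manipulated and manipulated mice were 480 and 24798 at day 1, and 1572 and 131340 at day 2. By geometric means the arms of Arg1 were thus no closer at day 2, and they did not overlap on either day. Retnla, which encodes RELM alpha, was at 33.0, 30.5, 43.3, 6007 and 55.9 in non-manipulated and 56.3, 46.4, 79.2, 73.3 and 44.1 in manipulated mice at day 1. Day 2 values were 31.6, 222, 26.2, 32.3 and 41.4 in non-manipulated and 29.5, 84.5, 49.8 and 48.8 in manipulated mice. Of these 19 values, 17 lay under 3 times the lane background, and the change of 3.95 ± 1.94 (adjusted p = 0.25) came down to -0.97 without non-manipulated mouse 4 of day 1.

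The 4 genes of antigen presentation and co-stimulation had a median change of -1.11, none called. Cd80, a ligand of CD28 on T cells, was at 9385, 7531, 16828, 6216 and 11214 in non-manipulated and 27384, 51958, 18931, 28113 and 40530 in manipulated mice at day 1. At day 2 it was at 18195, 9644, 7128, 8433 and 11466 in non-manipulated and 4790, 13767, 18048 and 18287 in manipulated mice. The arms did not overlap at day 1, and at day 2 every manipulated mouse was below every manipulated mouse of day 1. The effect was 1.71 ± 0.41 and then 0.32 ± 0.42, and its change was -1.38 ± 0.59 (95% confidence interval -2.60 to -0.17, adjusted p = 0.194), with 0.19 within mice 3 and 4 and -2.59 within the other mice. H2-Ab1, an MHC class II gene, had effects of -2.08 ± 0.73 and -1.98 ± 0.79 and a change of 0.10 (95% confidence interval -2.01 to 2.22). Vegfa, the vascular growth factor gene in no list, had a change of -0.94 (95% confidence interval -3.50 to 1.62).

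**Figure D4:**
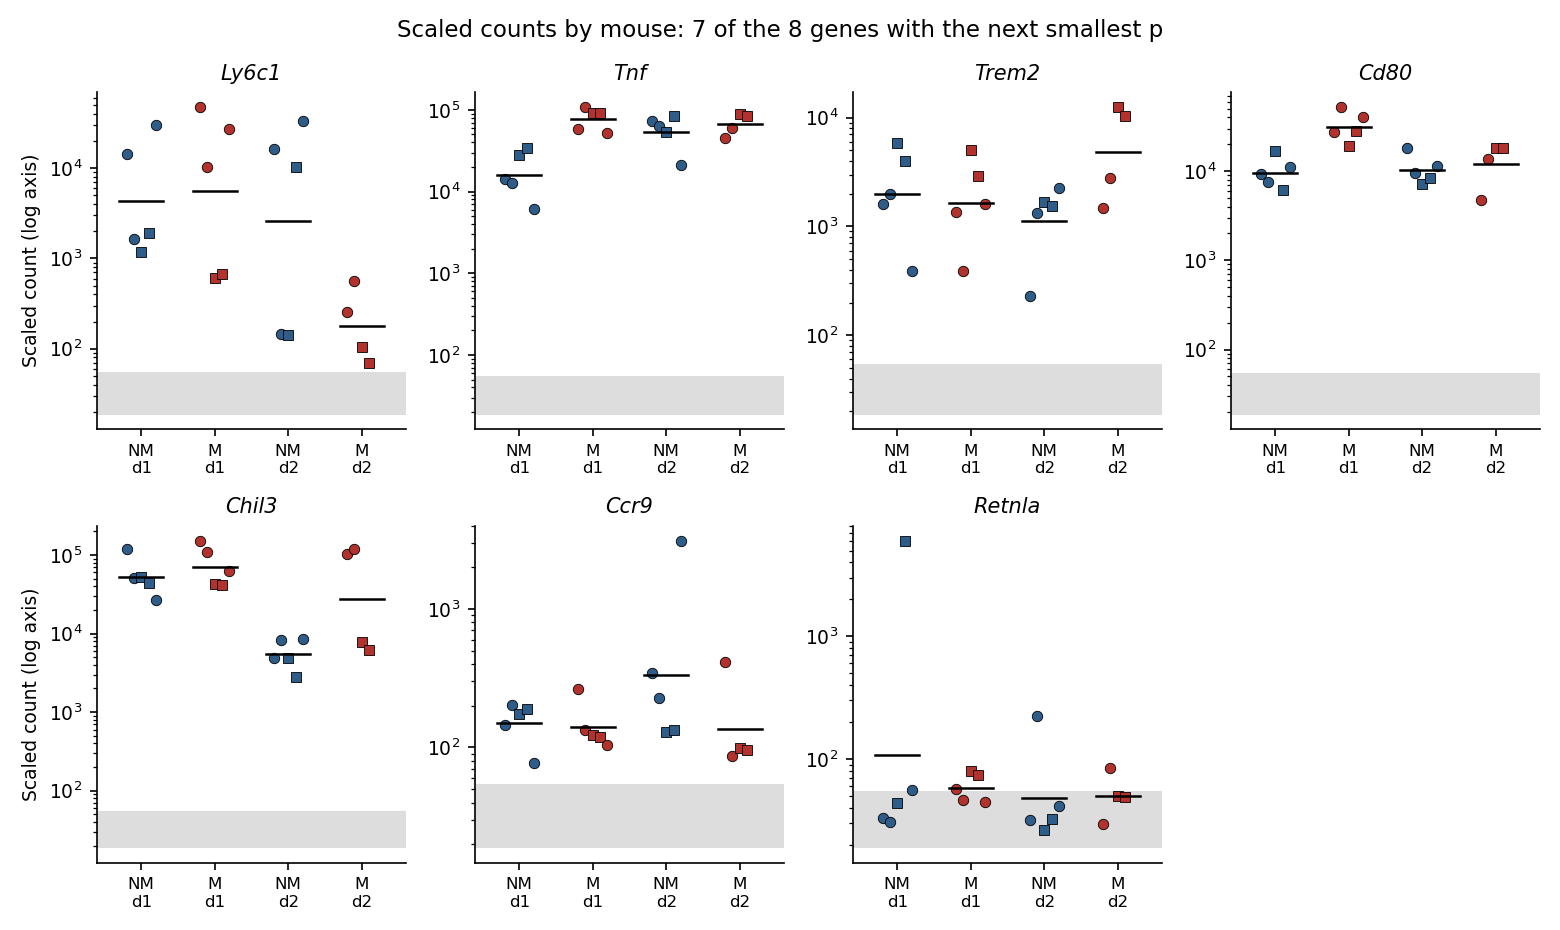
Scaled counts on a log axis of 7 of the 8 genes with the next smallest p for the change, none of them called, with symbols, bars and grey band as in the plot of the 4 called genes. Ly6c1 and Chil3 vary widely within groups, Ccr9 and Retnla each hold a mouse far above its group (3106 and 6007), and Tnf and Cd80 overlap between arms at day 2 but not at day 1.

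Over the whole panel, the manipulation effect was called for 24 genes at day 1 (42.1%) and for 18 at day 2 (31.6%). Both days shared 11 genes in the same direction, which is 45.8% of the day 1 calls and 61.1% of the day 2 calls, and none in opposite directions. Shared higher genes were Ccl2, Ccl7, Cxcl1, Il10, Il1a and Trem1, and shared lower genes were Ccr2, Cx3cr1, Cxcl11, Cxcl9 and Itgax. A further 13 genes were called at day 1 only and 7 at day 2 only, but of these 20 only Il6 and Il23a had a called difference between the days. The median absolute effect over the 57 genes was 1.03 (jackknife SE over mice 0.094) at day 1 and 0.75 (SE 0.29) at day 2, and 36 genes had a smaller absolute effect at day 2. Within the mice other than 3 and 4 the order turned, with medians of 0.99 at day 1 and 1.11 at day 2. Over all mice, 22 of the 24 genes called at day 1 and 9 of the 18 called at day 2 had a smaller absolute effect at day 2. These shares depend on the day by which genes were picked, and they carry no test.

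**Figure D5:**
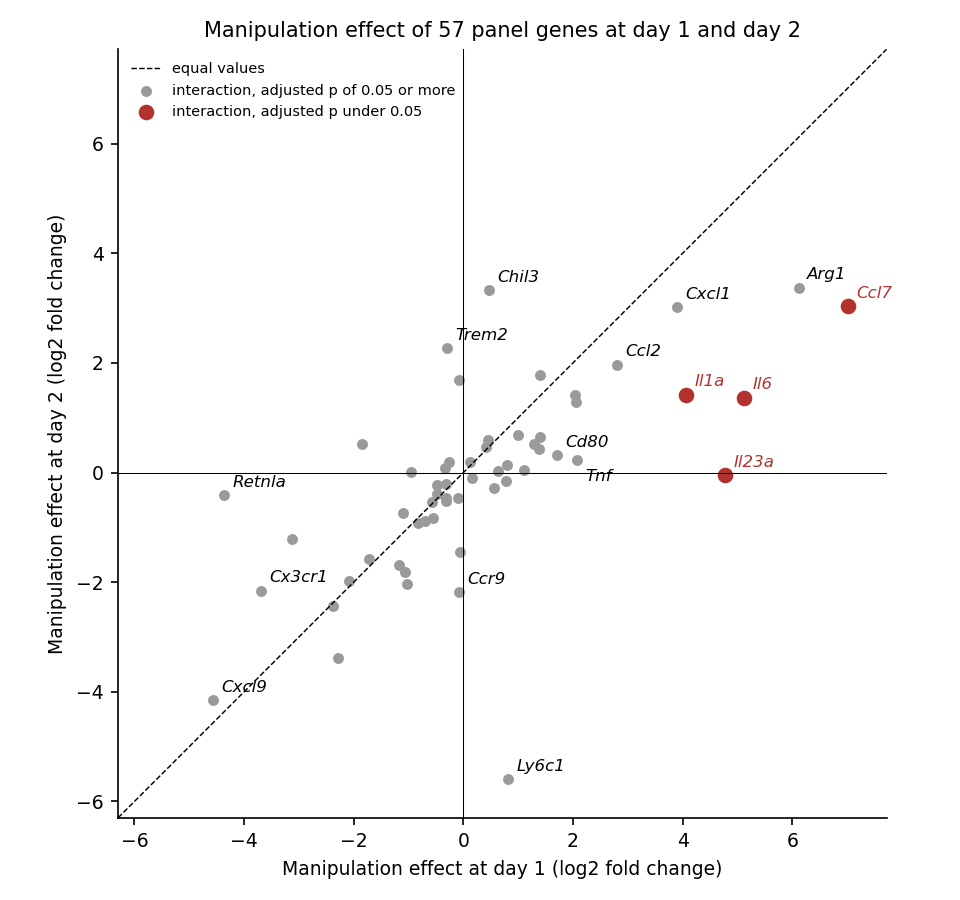
Manipulation effect of 57 panel genes at day 1 (horizontal) and day 2 (vertical), both as log2 fold change of manipulated over non-manipulated mice, with equal effects on the dashed line and the 4 genes with a called change in red. The called genes lie right of and below the line, and Cxcl9, Ccl2 and Cxcl1 lie near it.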

How the data were processed

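Gene expression in 100 sorted donor cells per mouse was measured by nCounter after 16 cycles of target enrichment, in 27 mice, of which the 19 of days 1 and 2 entered the comparison. The deposited raw table holds barcode counts per probe. For mice 3 and 4 of each group, 12 lanes in all, every deposited value is a whole multiple of the same fractional step between 1 and 2 (tolerance 0.001), so these are estimated counts, and in 1 lane (manipulated mouse 5, day 1) all values are even; the reason for these multipliers is not given in the sources used here. Each lane was divided by its step and rounded. A second deposited table holds normalised scores, which the authors scaled to housekeeping genes by a factor per sample and rounded, and which served as an alternative. The authors left 10 panel genes and 2 housekeeping genes blank. Alignment and genome build do not apply.

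Counts were scaled to the geometric mean of Actb, Gapdh and Rpl19 and fitted in edgeR 4.0.16 (R 4.3.3) with a mean for each of 6 groups over all 27 samples, which share the estimate of spread (21 residual degrees of freedom). Contrasts were tested with two-sided quasi-likelihood F tests and p-values adjusted over 57 genes (Benjamini-Hochberg, threshold 0.05). Fitted fold changes follow arithmetic group means. The script was tested on simulated data. Alternatives used limma 3.58.1 and DESeq2 1.42.0, other scalings, filters, blocks and fewer mice. Each sample was 1 mouse, from several experiments that the labels do not tell apart. The 5 contrasts share samples and are not independent of each other. Values per mouse are given for all called genes and for those with the smallest p until 12 genes were reached, except 1 of these; 2 genes are not reported here by name but remain in all fits and counts. Members, lists and tests were chosen with earlier results of these data known. Promoter sequences came from RefSeq (GRCm38.p6) for 37 of the 57 genes. Amplified barcode counts are not independent molecules, so the depth of a lane sets no counting interval here, and precision rests on the number of mice. No 2 lanes held the same values: between the closest pair, 73.7% of genes differed by over 3 counting SD.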

Additional observations from a re-analysis of the deposited data

Results flagged for a closer look

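The manipulation effect differed between day 1 and day 2, by the test of that difference, for Il1a (-2.65), Il6 (-3.76), Ccl7 (-3.99) and Il23a (-4.83 on the log2 scale), as described above.

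Of 48 groups examined for the 12 genes with the smallest p, 8 held a mouse that stood apart from the rest of its group by Dixon's criterion at the 95% level on log2 values. Chance alone flags about 1 in 20 groups. Among non-manipulated mice of day 1, mouse 5 had the lowest Il6 (33.8, next 56.9) and the highest Ccl7 (361, next 94.6), and mouse 4 had the highest Retnla (6007, next 55.9). Among non-manipulated mice of day 2, mouse 1 had the lowest Trem2 (230, next 1324) and mouse 2 the highest Retnla (222, next 41.4). Among manipulated mice, mouse 1 had the highest Ccr9 at day 1 (265, next 134) and, as a different animal, at day 2 (414, next 99.6), and mouse 2 had the lowest Ccl7 at day 2 (8331, next 19150). The cause of these values was not tested.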

How the results depend on the processing

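Under 19 other settings with all or a set of the mice, the count of 4 changed effects was 2 to 5, and it was 2 with the panel total as scale, with limma on the authors' scores, after background subtraction, with only the 55 genes above background in all 19 lanes (a filter that removes Il6) and within mice 3 and 4 (Ccl7, and Trem2 upwards). Within the other mice it was 3 (Il1a, Il6, and Siglec1 upwards). Leaving out each mouse in turn gave 2 to 4. Il1a was lost within mice 3 and 4 only, among all these settings, and ranged from -2.88 to -2.38 with a mouse left out; Il6 was lost there and after background subtraction, and ranged from -4.02 to -3.36. Ccl7 was lost in 3 settings and 2 of the 19 omissions named above, with a range of -4.82 to -3.24, and Il23a in 11 settings and with each of 10 mice left out singly (non-manipulated mice 1, 2, 3 and 5 of day 1 and 4 of day 2, manipulated mice 3 and 4 of day 1 and 1, 2 and 3 of day 2), with a range of -5.43 to -2.97. Ly6c1 was called in both DESeq2 fits. Values reversed in sets of lanes: Cd80 (0.19) and Ccr9 (0.14) within mice 3 and 4, and Retnla (-1.09) within the other mice, and Retnla ranged from -0.97 to 5.06 with a mouse left out. The median change over all genes was -0.28, and -0.43 with TMM, -0.04 with the panel total, 0.18 within mice 3 and 4 and -0.68 within the other mice, so values near zero have no stable sign.

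The call between days in manipulated mice (1 gene) became 0 with TMM, background subtraction, the filter on background or mice 3 and 4 alone, 2 with limma or only days 1 and 2, 3 with DESeq2 and its own size factors, and 5 with DESeq2 and housekeeping factors or within the other mice; with a mouse left out it was 0 to 1. In non-manipulated mice (8 genes, 4 to 11 over these settings) it became 5 with limma and 4 with limma on the authors' scores or within the other mice, and 4 to 9 with a mouse left out. The 24 day 1 effects (14 to 28) became 14 within mice 3 and 4 (20 to 26 with a mouse left out), and the 18 day 2 effects (3 to 23) became 11 with limma on the authors' scores, 6 within mice 3 and 4 and 3 within the other mice (8 to 21 with a mouse left out). The median absolute effect at day 1 (1.03) was 1.15 with the authors' factor, 1.17 with limma on their scores and 0.87 within mice 3 and 4 (0.95 to 1.05 with a mouse left out), and at day 2 (0.75) it was 1.08 with limma on those scores and 1.11 within the other mice (0.61 to 0.94). Within those mice the day 1 value was 0.99, so the order of the days turned there. The causes of these differences were not tested, and the fits within sets of lanes also held fewer mice.

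With the mouse number as a replicate block, 3 effects changed (Il1a -2.72, Il6 -3.33 and Ccl7 -3.84) and Il23a was at -3.42 (adjusted p = 0.148). The labels do not say that equal numbers mark a shared experiment; deviations of 27 same-number pairs had a median correlation of 0.16, with 15 above 0.1, against -0.02 for 108 other pairs, with 36 above 0.1. Same-number pairs always shared a set of lanes, so other pairs within a set are the closer comparison. The 42 such pairs had a median of 0.08, with 21 above 0.1. The 66 pairs across sets had a median of -0.09, with 15 above 0.1. Likeness by mouse number and by set of lanes was thus not fully separated. The labels give no pairing, and the mice were analysed without it. In 11 genes at least 1 of the 4 groups had a median under 3 times background, which limits how large a fold the probes can show. These were Ccl7, Ccl8, Ccr9, Cx3cr1, Cxcl11, Cxcl9, Il23a, Il6, Mrc1, Retnla and Tlr2.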

Other observations

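For some genes the fitted values of both arms from day 1 to day 2 had the same sign and a similar size. Mrc1, the mannose receptor gene of resident macrophages, had a log2 value of 1.69 ± 0.73 in non-manipulated and 2.08 ± 0.76 in manipulated mice, and a difference between the arms of 0.39 (95% confidence interval -1.74 to 2.53). In non-manipulated mice of day 1, Mrc1 had a median of 2.18 times the lane background, with 2 of 5 mice above 3 times. Its rise in that arm may therefore be understated. Itgb7, which encodes the beta 7 integrin chain used for entry into the gut, had values of -1.39 ± 0.65 and -1.92 ± 0.71, and all mice of day 2 lay below all mice of day 1 in each arm. Neither gene was called in either arm (adjusted p = 0.127 and 0.145 for Mrc1, and 0.16 and 0.145 for Itgb7, edgeR quasi-likelihood test). Ccr2, the chemokine receptor of blood monocytes, had values between the days close to zero in the fit (0.11 ± 0.47 and 0.26 ± 0.49), while its effect was -1.73 and -1.57.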
